A study of Mus musculus with 6 samples.

Results

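The 34 genes described here cover the path from glucose to lactate and the transcriptional response to low oxygen. They comprise 17 glycolytic enzymes, the transporters of glucose and lactate, the switches that set glycolytic flux, and the subunits, regulators and targets of hypoxia-inducible factor (HIF). They were chosen by symbol, from a list of 34 symbols, with earlier results of these data known. All 34 were present among the 27502 gene IDs of each table. Aldoa stood under 2 IDs, so 35 IDs in all belong to the set. The RNA came from cultured smooth muscle cells of the mouse aorta, 3 samples treated with small interfering RNA against Ezh2 (siEzh2) and 3 control samples, all at 48 hours. The labels call the controls the controls of the Ezh2 knockdown and do not say what those cells received, nor the strain, sex or age of the mice, nor whether the 3 samples of a group were separate cultures or animals. What the p-values measure is thus the spread among these 6 samples alone, and that spread may be technical.

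Glycolysis splits glucose into pyruvate in the cytosol, with phosphofructokinase and pyruvate kinase as its controlled steps, and lactate dehydrogenase turns pyruvate into lactate for export. When oxygen is low, prolyl hydroxylases stop marking the HIF alpha subunits for degradation by the VHL ubiquitin ligase, and stabilised HIF raises transcription of most glycolytic enzymes and of genes such as Bnip3, Ndrg1 and the collagen prolyl hydroxylases. HIF alpha subunits are controlled mainly at the level of the protein, which RNA values do not show. Cultured smooth muscle cells are known to rely strongly on glycolysis. Ezh2 is the histone methyltransferase behind the repressive Polycomb mark H3K27me3.

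Values are FPKM, reads scaled to exon length and sequencing depth, as deposited, and rest on 16080003 to 18753128 recovered reads per sample. Ezh2 had 1.20, 1.09 and 1.05 FPKM in siEzh2 samples, against 3.41, 3.59 and 3.88 FPKM in control samples, 3.26 times lower with no overlap. The smooth muscle label was checked on 8 markers, whose summed level was 543 to 581 FPKM in siEzh2 and 718 to 748 FPKM in control samples. Of the 6 tested, 5 were lower and 0 higher, beside 22.7% lower and 24.1% higher among all tested genes. Acta2 made up most of the sum, while Tagln (0.228 and 0.253 FPKM in siEzh2 and control samples) and Myh11 (1.12 and 1.83 FPKM) were low for this cell type. Cnn1 (1.04 and 1.14 FPKM), Myocd (1.13 and 1.57 FPKM) and Des (0.431 and 0.752 FPKM) were low too, so the sum says little beyond Acta2. Summed markers were 3.49 to 3.84 FPKM in siEzh2 and 2.19 to 2.42 FPKM in control samples for endothelial cells (6 genes, Tie1 under 0.1 FPKM in every sample). They were 14.1 to 15.2 and 17.2 to 20.5 FPKM for macrophages (7 genes, Itgam and Ptprc under 0.1 FPKM), 350 to 365 and 335 to 357 FPKM for fibroblasts (6 genes, mostly Ly6a), and 20.6 to 22.0 and 29.4 to 30.2 FPKM for adipocytes (4 genes). Within these sums Dpt and Lum of fibroblasts were lower (10.2 and 1.11 FPKM in siEzh2, 24.8 and 2.79 FPKM in control samples) and Pdgfra was higher, while Csf1r and Lyz2 of macrophages were lower and Cd14 and Cd68 higher. All 3 tested adipocyte markers were lower, and Kdr, the only endothelial marker tested, was higher. RNA quality was read from 13 genes of the mitochondrial genome, of which 8 were lower and 0 higher, beside 22.7% and 24.1% of all tested genes. Their sum was 15861 to 16976 FPKM in siEzh2 and 19081 to 19794 FPKM in control samples. The part of these shifts in the results below was not tested, and in bulk RNA fewer cells of a type and less RNA per cell cannot be told apart.

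The comparison asked how each step differed after knockdown of Ezh2. In siEzh2 samples 9 glycolytic enzymes rose by up to 1.39 times, led by Pfkl, Pkm and Eno1. Pfkm, Ldhb, the HIF alpha subunit Epas1 and the collagen prolyl hydroxylase P4ha2 fell. Of the 34 genes, 32 had a mean of at least 1 FPKM in 1 of the groups and were tested with limma on log2(FPKM + 1), a scale that understates changes of low genes. At a Benjamini-Hochberg adjusted p under 0.05, 14 rose, 4 fell and 14 did not pass. Among all 11869 tested genes 24.1% rose and 22.7% fell (46.9% in either direction), against 43.8% and 12.5% of the 32. As the members were chosen with earlier results of these data known, these shares describe the list and test nothing. In a wider list of other glycolysis and pyruvate genes, with 24 tested, 12.5% rose and 29.2% fell. The median log2 fold change of the 32 was 0.10, beside 0.01 over all tested genes. In 17 of the 32 every siEzh2 sample lay above every control sample and in 8 below, beside 30.0% and 28.1% of all tested genes. The glycolytic enzymes accounted for 9 of the rises and 2 of the falls among 16 tested (median 0.16). The HIF subunits, the genes of HIF degradation and the genes grouped as HIF targets held 1 rise and 2 falls among 10 tested (median −0.08). Thus 30.0% of them were called. HIF targets placed with other steps are not in this group. Of the 18 calls, 14 held in all 12 alternative fits, and those of Tpi1, Slc2a1, Pdk1 and Ndrg1 did not.

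**Figure D1:**
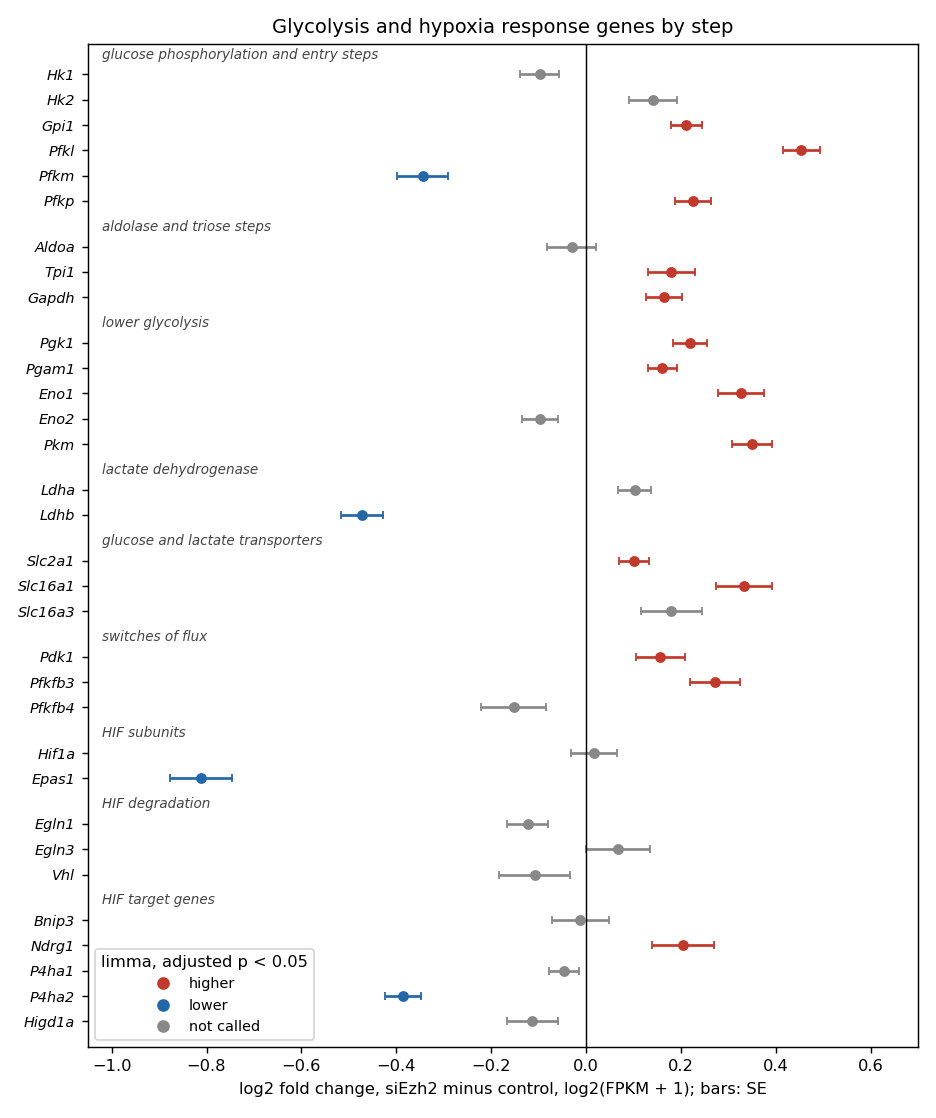
Log2 fold changes (x axis, siEzh2 minus control on log2(FPKM + 1), bars SE) of the 32 tested genes, grouped down the page by step. Rises (red) stand mainly in the glycolytic enzymes and transporters, from 0.10 for Slc2a1 to 0.45 for Pfkl, and the longest fall (blue) is that of Epas1 at −0.81.

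Promoters of the genes with the largest changes are shown because HIF binds the core sequences ACGTG and GCGTG, and the windows show where these letters stand. Each window runs from 250 bases before to 50 bases after an annotated transcript start, read 5′ to 3′ on the gene's strand (RefSeq, GRCm38.p6, the same assembly as mm10). Capitals mark ACGTG or GCGTG on either strand, the second strand reading CACGT or CACGC, and neighbouring matches can overlap, as in CACGTG. Shown are all windows of the 3 largest rises and of the 2 largest falls that had an entry. Epas1 and Ndrg1 had none. Pfkl is at chr10:78009758-78010057 on the minus strand, Pkm at chr9:59656326-59656625 and chr9:59656977-59657276 on the plus strand, and Slc16a1 at chr3:104638414-104638713 on the plus strand. Ldhb is at chr6:142507908-142508207 on the minus strand and P4ha2 at chr11:54100674-54100973 on the plus strand.
Pfkl: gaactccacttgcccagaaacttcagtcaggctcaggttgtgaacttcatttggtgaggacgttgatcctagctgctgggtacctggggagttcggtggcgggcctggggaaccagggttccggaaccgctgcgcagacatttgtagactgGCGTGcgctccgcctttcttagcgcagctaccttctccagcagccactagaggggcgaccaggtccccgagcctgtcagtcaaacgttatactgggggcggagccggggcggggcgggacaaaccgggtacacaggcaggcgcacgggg
Pkm, upstream start: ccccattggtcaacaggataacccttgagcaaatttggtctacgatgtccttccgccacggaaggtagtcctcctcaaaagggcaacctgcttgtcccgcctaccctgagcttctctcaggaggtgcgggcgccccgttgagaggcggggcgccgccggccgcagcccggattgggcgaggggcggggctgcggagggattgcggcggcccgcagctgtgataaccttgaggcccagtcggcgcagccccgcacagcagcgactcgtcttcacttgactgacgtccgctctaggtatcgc
Pkm, downstream start: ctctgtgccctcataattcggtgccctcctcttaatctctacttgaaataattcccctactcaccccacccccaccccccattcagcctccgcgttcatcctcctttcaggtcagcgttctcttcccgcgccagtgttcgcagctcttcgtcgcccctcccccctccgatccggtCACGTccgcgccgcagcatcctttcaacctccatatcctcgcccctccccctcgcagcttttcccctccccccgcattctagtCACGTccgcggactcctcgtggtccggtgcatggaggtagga
Slc16a1: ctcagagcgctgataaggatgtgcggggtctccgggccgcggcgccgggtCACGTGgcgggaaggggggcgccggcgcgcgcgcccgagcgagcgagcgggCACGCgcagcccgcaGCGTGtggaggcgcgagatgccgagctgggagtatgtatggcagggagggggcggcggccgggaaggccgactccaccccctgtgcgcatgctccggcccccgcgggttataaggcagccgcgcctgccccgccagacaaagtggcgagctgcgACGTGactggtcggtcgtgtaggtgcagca
Ldhb: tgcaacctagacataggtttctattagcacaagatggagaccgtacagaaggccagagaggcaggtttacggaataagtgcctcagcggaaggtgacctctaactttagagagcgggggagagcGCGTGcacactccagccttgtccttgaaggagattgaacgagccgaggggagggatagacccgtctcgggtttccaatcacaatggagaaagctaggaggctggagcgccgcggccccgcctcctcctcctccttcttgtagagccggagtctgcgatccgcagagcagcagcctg
P4ha2: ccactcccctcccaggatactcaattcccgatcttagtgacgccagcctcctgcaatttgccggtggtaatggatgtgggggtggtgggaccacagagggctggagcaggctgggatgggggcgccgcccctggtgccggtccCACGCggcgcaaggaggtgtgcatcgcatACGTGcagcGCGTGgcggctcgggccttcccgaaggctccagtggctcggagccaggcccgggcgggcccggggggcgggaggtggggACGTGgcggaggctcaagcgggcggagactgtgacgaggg

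The ACGTG letters stood in most of these genes. ACGTG on either strand stood in a window of 22 of the 32 genes with an entry (68.8%), against 30.0% of the 8671 tested genes with one. GCGTG stood in 21 of the 32 (65.6%), against 57.0% of tested genes, and either in 28 (87.5%), against 68.8%. Over windows rather than genes, ACGTG stood in 25 of 45 windows (55.6%), beside 19.6% of all 32851 windows. The list was drawn up to hold hypoxia response genes and HIF targets, so these shares describe it and test nothing. Among genes that rose 7 of 13 had ACGTG, among those that fell 2 of 3, and among those not called 11 of 14. The 32 genes with an entry are not the 32 tested. They lack Epas1 and Ndrg1 and include Aldoc and Ankrd37, which were below the filter. Both of the latter had ACGTG, and neither is in the split by call. Within the windows printed above, the Ldhb window had GCGTG once, the Pfkl window likewise, and those of Slc16a1 and P4ha2 had several matches. The upstream window of Pkm had no match and the downstream window had 2, both ACGTG. Of these genes Pfkl, Pkm and Slc16a1 rose, and Ldhb and P4ha2 fell. Whether matches go with direction was not tested. These are matches of letters and not binding sites.

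At the entry to glycolysis, phosphofructokinase changed isoform by isoform while the hexokinases did not pass the test. Pfkl, the liver-type subunit of phosphofructokinase (mm10 chromosome 10, 77986947 to 78010083, minus strand), had 22.1, 22.2 and 23.7 FPKM in siEzh2 samples, against 16.1, 16.5 and 16.2 FPKM in control samples. All siEzh2 values lay above all control values, and the mean was 1.39 times that of control (log2 fold change 0.45, SE 0.0393, adjusted p = 0.000368, limma). Pfkm, the muscle-type subunit (10.2% of its exon bases shared with Gm26513 on the same strand), had 8.32, 8.04 and 9.25 FPKM in siEzh2 samples, against 11.2, 11.2 and 11.0 FPKM in control samples. It went the other way without overlap and was 1.30 times lower (log2 fold change −0.34, SE 0.0533, adjusted p = 0.00306). Pfkp, the platelet-type subunit, averaged 9.92 ± 0.147 FPKM in siEzh2 and 8.35 ± 0.300 FPKM in control samples (SD, n = 3 each) and rose by 0.22 on the log2 scale (adjusted p = 0.00427). Gpi1, which isomerises the phosphorylated glucose to fructose phosphate, had 72.0, 70.2 and 70.3 FPKM in siEzh2 samples, against 60.4, 61.4 and 61.5 FPKM in control samples. Its groups did not overlap either (log2 fold change 0.21, adjusted p = 0.00286), and 11.5% of its exon bases lie opposite Gm26762. Hk1, the broadly expressed hexokinase, averaged 41.8 ± 1.72 FPKM in siEzh2 and 44.8 ± 0.590 FPKM in control samples (SD, n = 3 each). Its log2 fold change was −0.10 (95% interval −0.20 to 0.00, adjusted p = 0.0946). Hk2, the inducible hexokinase and a known HIF target, averaged 12.3 ± 0.668 and 11.1 ± 0.414 FPKM (SD of 3 samples a group, log2 fold change 0.14, adjusted p = 0.0610). Its lowest siEzh2 sample, at 11.6 FPKM, was close to its highest control sample, at 11.5 FPKM, and without siEzh2 sample 3 it passed (adjusted p = 0.0270). Both hexokinases passed with trend and robust moderation (adjusted p = 0.0472 for Hk1 and 0.0446 for Hk2) and in limma-voom on recovered reads (0.00493 and 0.00935).

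**Figure D2:**
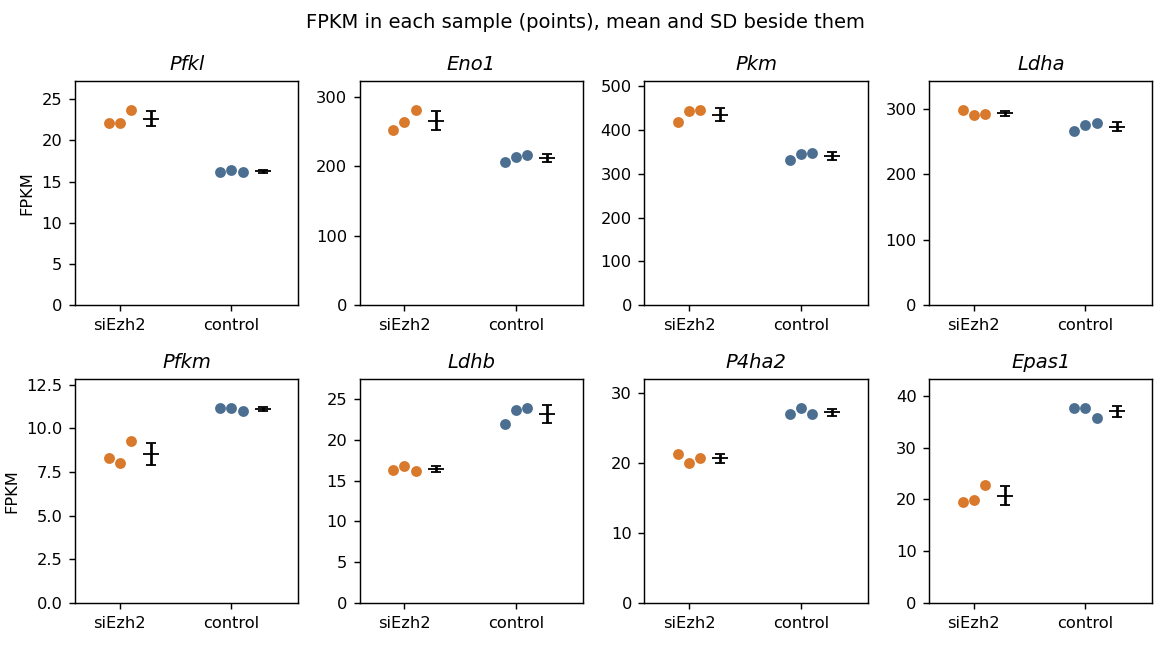
FPKM (y axis, from 0) of 8 genes in each of the 3 siEzh2 samples (orange, left) and 3 control samples (blue, right), with the mean and SD beside the points. Pfkl, Eno1, Pkm and Ldha lie above control in all siEzh2 samples, and Pfkm, Ldhb, P4ha2 and Epas1 below it, though Ldha did not pass the test (adjusted p = 0.0517).

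In the middle of the pathway Aldoa did not pass the test, while triose phosphate isomerase and glyceraldehyde phosphate dehydrogenase rose slightly. Aldoa, the main aldolase of muscle and most cultured cells, had 258, 276 and 279 FPKM in siEzh2 samples, against 263, 279 and 288 FPKM in control samples. The groups overlapped (log2 fold change −0.03, 95% interval −0.15 to 0.09, adjusted p = 0.650). The other Aldoa ID (ENSMUSG00000114515) had 6, 6 and 4 reads in siEzh2 and 3, 2 and 2 reads in control samples and stood below the filter. Aldoc, the brain-type aldolase, also stood below it, with 0.750 ± 0.111 FPKM in siEzh2 and 0.821 ± 0.0681 FPKM in control samples (SD, n = 3 each). Tpi1, triose phosphate isomerase, had 136, 147 and 143 FPKM in siEzh2 samples, against 119, 129 and 127 FPKM in control samples, and rose by 0.18 on the log2 scale (adjusted p = 0.0269). It no longer passed when siEzh2 sample 2 (adjusted p = 0.0798) or 3 (0.0693) or control sample 1 (0.0730) or 3 (0.0549) was left out, or with no filter (0.0536). Gapdh averaged 29.4 ± 0.831 FPKM in siEzh2 and 26.1 ± 0.547 FPKM in control samples (SD, n = 3 each), a rise of 0.16 on the log2 scale (adjusted p = 0.0134). Its level was far under those of its neighbours Tpi1 and Pgk1, with 1962 to 2148 reads a sample over 4133 annotated exon bases. Gapdh has many near-identical pseudogene copies in the mouse, as have Pgk1, Pgam1, Eno1, Aldoa and Ldha. The levels of these genes are thus uncertain, as reads that match more than 1 copy may have been lost or counted elsewhere. Whether such losses lowered the level of Gapdh was not tested.

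The 4 abundant enzymes of lower glycolysis rose. Pgk1, phosphoglycerate kinase on the X chromosome, had 292, 291 and 294 FPKM in siEzh2 samples, against 243, 256 and 255 FPKM in control samples (log2 fold change 0.22, adjusted p = 0.00362). Pgam1, phosphoglycerate mutase, averaged 290 ± 3.92 FPKM in siEzh2 and 260 ± 0.910 FPKM in control samples (SD of 3 samples a group, log2 fold change 0.16, adjusted p = 0.00738). In neither gene did the groups overlap. Eno1, the ubiquitous enolase, had 253, 264 and 281 FPKM in siEzh2 samples, against 206, 213 and 216 FPKM in control samples, 1.26 times higher (log2 fold change 0.33, SE 0.0489, adjusted p = 0.00270). Pkm, pyruvate kinase of muscle and proliferating cells (15.3% of its exon bases shared with Gm49759), had 418, 443 and 446 FPKM in siEzh2 samples, against 331, 347 and 347 FPKM in control samples. It was the most abundant of the 34 genes in every sample, and rose 1.28 times (log2 fold change 0.35, SE 0.0422, adjusted p = 0.00119). The values are per gene, so the splice forms of Pkm are not separated. Eno2, the neuronal enolase, stood apart with 6.997 ± 0.134 FPKM in siEzh2 and 7.56 ± 0.260 FPKM in control samples (SD, n = 3 each) and did not pass (log2 fold change −0.10, adjusted p = 0.0773). It passed as lower with quantile normalization (adjusted p = 0.0375). Summed over the 17 enzymes the level was 2160 to 2244 FPKM in siEzh2 and 1895 to 1982 FPKM in control samples, 1.13 times higher. Their reads made up 0.838 ± 0.0196% of all recovered reads in siEzh2 and 0.727 ± 0.0171% in control samples (SD, n = 3 each). Both figures include the genes with pseudogene copies named above, whose levels are uncertain.

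Of the lactate dehydrogenase paralogs Ldhb fell and Ldha did not pass. Ldha, whose product favours the reduction of pyruvate to lactate, had 298, 290 and 292 FPKM in siEzh2 samples, against 266, 275 and 278 FPKM in control samples. The groups did not overlap, yet the difference missed the threshold (log2 fold change 0.10, 95% interval 0.02 to 0.19, adjusted p = 0.0517). It passed in limma with trend and robust moderation (adjusted p = 0.00840) and in limma-voom on recovered reads (adjusted p = 0.000302). Ldhb, whose product favours the oxidation of lactate, had 16.3, 16.8 and 16.2 FPKM in siEzh2 samples, against 21.9, 23.7 and 23.9 FPKM in control samples. It was 1.41 times lower in siEzh2 samples (log2 fold change −0.47, SE 0.0441, adjusted p = 0.000487), the largest fall among the 17 listed enzymes.

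Of the 3 transporters 2 were called higher, beside 24.1% of all tested genes, and the call of Slc2a1 did not hold in every fit. Slc16a1, the lactate carrier MCT1, had 8.05, 8.50 and 9.39 FPKM in siEzh2 samples, against 6.66, 6.42 and 6.89 FPKM in control samples (log2 fold change 0.33, SE 0.0590, adjusted p = 0.00525). Slc16a3, the lactate exporter MCT4 and a HIF target, averaged 9.70 ± 0.507 and 8.46 ± 0.663 FPKM in siEzh2 and control samples (SD, n = 3 each) and did not pass (log2 fold change 0.18, adjusted p = 0.0616). It passed in limma with trend and robust moderation (adjusted p = 0.0431) and in limma-voom (adjusted p = 0.00572). Slc2a1, the glucose transporter GLUT1, rose by 0.10 on the log2 scale, with 38.8 ± 0.623 FPKM in siEzh2 and 36.1 ± 0.402 FPKM in control samples (SD, n = 3 each, adjusted p = 0.0443). This call was lost when any 1 of the 6 samples was left out (adjusted p = 0.0552 to 0.124) and with the replicate number as a block (adjusted p = 0.103).

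Among the switches of flux, Pfkfb3, which makes the bisphosphate that activates phosphofructokinase, had 4.63, 4.58 and 4.19 FPKM in siEzh2 samples, against 3.77, 3.44 and 3.37 FPKM in control samples. It rose without overlap (log2 fold change 0.27, SE 0.0527, adjusted p = 0.00719). Its paralog Pfkfb4 had 4.07, 4.29 and 4.93 FPKM in siEzh2 samples, against 5.17, 5.19 and 4.72 FPKM in control samples. Here siEzh2 sample 3 overlapped the controls (log2 fold change −0.15, adjusted p = 0.113), and without it Pfkfb4 passed as lower (log2 fold change −0.22, adjusted p = 0.0273). Pdk1, the kinase that turns off pyruvate dehydrogenase, averaged 2.42 ± 0.170 FPKM in siEzh2 and 2.07 ± 0.126 FPKM in control samples (SD of 3 samples a group, log2 fold change 0.16, adjusted p = 0.0493). Its call was lost without any 1 of the 6 samples (adjusted p = 0.0521 to 0.138), with quantile normalization (0.0849), with no filter (0.0964) and with trend and robust moderation (0.0851).

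Of the HIF alpha subunits Epas1 fell and Hif1a did not pass. Epas1 (ENSMUSG00000024140), which encodes HIF-2 alpha, had 19.4, 19.9 and 22.8 FPKM in siEzh2 samples, against 37.6, 37.6 and 35.8 FPKM in control samples. These rest on 1746 to 2214 reads in each siEzh2 sample and 3711 to 3943 in each control sample. The highest siEzh2 value was far below the lowest control value, and the mean was 1.79 times lower (log2 fold change −0.81, SE 0.0649, adjusted p = 0.000268), the largest change among the 34 genes. Hif1a had 27.1, 27.7 and 25.0 FPKM in siEzh2 samples, against 25.6, 27.0 and 26.2 FPKM in control samples. The groups overlapped, with a log2 fold change of 0.02 and a 95% interval of −0.10 to 0.13 (adjusted p = 0.795).

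None of the genes of HIF degradation passed the test. Egln1, the main prolyl hydroxylase that marks HIF alpha (PHD2), averaged 20.2 ± 0.422 FPKM in siEzh2 and 22.1 ± 0.961 FPKM in control samples (SD, n = 3 each), and the groups did not overlap (log2 fold change −0.12, adjusted p = 0.0546). It passed as lower in limma with trend and robust moderation (adjusted p = 0.0321) and in limma-voom (adjusted p = 0.0166). Egln3, a hydroxylase that HIF itself induces, averaged 5.43 ± 0.380 and 5.14 ± 0.422 FPKM in siEzh2 and control samples (SD, n = 3 each, adjusted p = 0.444). Vhl, the substrate-binding subunit of the ubiquitin ligase, averaged 7.12 ± 0.660 and 7.75 ± 0.579 FPKM (SD, n = 3 each, adjusted p = 0.277). Both overlapped between the groups.

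Of the 5 tested genes that the list groups as HIF targets, P4ha2 fell and Ndrg1 rose. These are shares of 20% each, beside 22.7% lower and 24.1% higher among all tested genes. HIF targets placed with other steps, such as Hk2, Slc16a3 and Egln3, are not in this count. P4ha2, a catalytic subunit of collagen prolyl hydroxylase, had 21.3, 19.98 and 20.7 FPKM in siEzh2 samples, against 26.9, 27.8 and 27.0 FPKM in control samples. It was 1.32 times lower without overlap (log2 fold change −0.39, SE 0.0379, adjusted p = 0.000577). Its paralog P4ha1, at 86.4 ± 0.856 FPKM in siEzh2 and 89.3 ± 1.14 FPKM in control samples (SD, n = 3 each), did not pass (log2 fold change −0.05, adjusted p = 0.265), although its groups did not overlap. Ndrg1, a stress-responsive gene often read as a hypoxia marker, rose at a low level, with 2.44 ± 0.249 FPKM in siEzh2 and 1.98 ± 0.144 FPKM in control samples (SD of 3 samples a group, log2 fold change 0.20, adjusted p = 0.0440). It no longer passed when siEzh2 sample 2 (adjusted p = 0.106) or 3 (0.108) or control sample 1 (0.107) or 2 (0.124) was left out, and with no filter (0.0978), quantile normalization (0.0831) or trend and robust moderation (0.0554). Bnip3, which targets mitochondria for autophagy, averaged 6.86 ± 0.435 FPKM in siEzh2 and 6.93 ± 0.426 FPKM in control samples (SD of 3 samples a group, log2 fold change −0.01, 95% interval −0.16 to 0.13, adjusted p = 0.879). Higd1a, a mitochondrial protein induced by hypoxia, averaged 12.6 ± 0.672 and 13.7 ± 0.650 FPKM (SD, n = 3 each, adjusted p = 0.126). Antisense genes cover 22.3% of the exon bases of Bnip3 and 22.5% of those of Higd1a. Ankrd37, a HIF target with ankyrin repeats, had 6, 12 and 7 reads in siEzh2 and 7, 22 and 12 reads in control samples, too few to show a change.

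Within families, the share of each paralog in the summed FPKM was compared for 10 families, each cut to those of its members that are among the 34 genes. Paralogs outside the 34, such as Hif3a, Pfkfb2 and Eno3, are therefore in no sum. Shares depend on the annotated exon length of each gene. In 8 families the groups did not overlap, the exceptions being the aldolases and the lactate carriers. Taken singly, 30.0% of all tested genes had every siEzh2 sample above every control sample and 28.1% below. Shares of other gene pairs were not computed, so the count of families has no like baseline. The shares use the same FPKM as the tests above, and a change of 1 paralog alone moves the share of the others. An exact two-sided permutation test of 3 against 3 samples cannot go below p = 0.1, which the 8 families reached (0.133 after Benjamini-Hochberg adjustment over 12 shares). The pair of Hif1a and Epas1 shifted most. Hif1a held 58.3, 58.2 and 52.4% of the sum of both in siEzh2 samples, against 40.5, 41.8 and 42.3% in control samples, as the sum itself was 47.3 ± 0.667 FPKM in siEzh2 and 63.3 ± 1.31 FPKM in control samples (SD, n = 3 each). Pfkm held 20.8 ± 0.713% of phosphofructokinase in siEzh2 and 31.1 ± 0.224% in control samples (SD, n = 3 each), and Pfkl 55.1 ± 0.285% and 45.5 ± 0.474%. The share of Pfkp overlapped between the groups (p = 0.3, exact permutation test). Ldhb held 5.30 ± 0.151% of lactate dehydrogenase in siEzh2 and 7.82 ± 0.172% in control samples (SD, n = 3 each). Pfkfb3 held 50.3 ± 3.84% of the sum of Pfkfb3 and Pfkfb4 in siEzh2 and 41.2 ± 1.24% in control samples, and P4ha2 19.3 ± 0.570% and 23.4 ± 0.131% (SD, n = 3 each). The shift of the hexokinases was smaller, with Hk2 at 22.8 ± 1.61% in siEzh2 and 19.8 ± 0.442% in control samples (SD, n = 3 each).

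**Figure D3:**
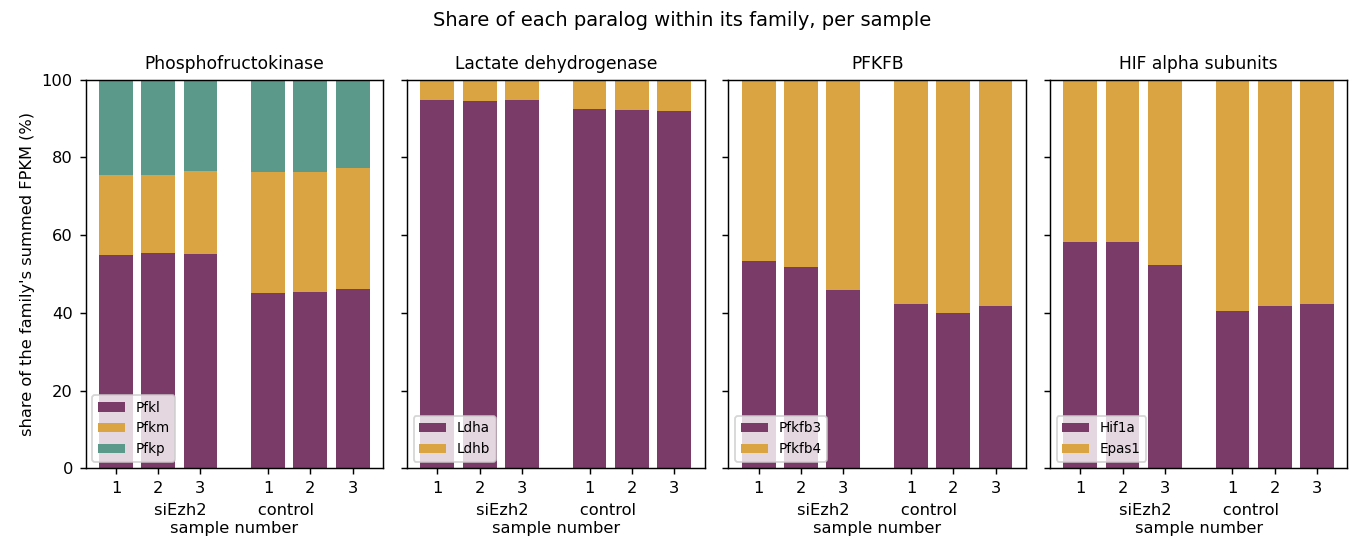
Share of each paralog in the summed FPKM of those family members that are among the 34 genes (y axis, percent), with 1 bar for each siEzh2 sample (left) and each control sample (right). Pfkl and Hif1a fill more of the bar in all siEzh2 samples, Pfkm, Ldhb and Epas1 less.

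Other genes of both pathways were taken from a list of 93 symbols. The files held 90 of them and 74 passed the filter, of which 16 rose and 21 fell (21.6% and 28.4%, beside 24.1% and 22.7% of all tested genes). In the glycolysis and pyruvate list 3 rose and 7 fell of 24 tested (12.5% and 29.2%), with a median log2 fold change of −0.07. Eno3, the muscle enolase, had 6.51, 7.95 and 7.57 FPKM in siEzh2 samples, against 12.2, 12.7 and 12.8 FPKM in control samples (log2 fold change −0.71, adjusted p = 0.000579). Pgam2, the muscle phosphoglycerate mutase, had 2.59, 1.63 and 3.21 FPKM in siEzh2 samples, against 3.78, 3.996 and 4.81 FPKM in control samples (log2 fold change −0.60, adjusted p = 0.0327). It no longer passed when siEzh2 sample 1 (adjusted p = 0.0648) or control sample 1 (0.0570), 2 (0.0688) or 3 (0.0953) was left out, or with no filter (0.0895). Pdk3, a pyruvate dehydrogenase kinase, fell by 0.57 on the log2 scale, to 10.4 ± 0.319 FPKM in siEzh2, against 15.9 ± 1.38 FPKM in control samples (SD, n = 3 each, adjusted p = 0.00102).

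In the HIF list 13 rose (26.0%) and 14 fell of 50 tested, with a median log2 fold change of −0.04. In either direction 54.0% were called, beside 46.9% of all tested genes (24.1% higher and 22.7% lower). The largest rises were those of Hmox1, which breaks down haem, 1.90 times to 381 ± 7.01 FPKM in siEzh2, against 200 ± 5.36 FPKM in control samples (SD, n = 3 each), and of Angptl4, an inhibitor of lipoprotein lipase, 1.84 times. Ero1l, an oxidase of the endoplasmic reticulum, rose 1.71 times and Tfrc, the transferrin receptor, 1.74 times. Genes of this list can answer to HIF and to other signals, and the part of either in these changes was not tested. The largest fall was that of Adm, the vasodilator peptide adrenomedullin and a HIF target, which had 215, 230 and 226 FPKM in siEzh2 samples, against 365, 374 and 358 FPKM in control samples (log2 fold change −0.71, adjusted p = 0.000102). Vegfa, the angiogenic growth factor induced by hypoxia, rose by 0.21 on the log2 scale, with 12.6 ± 0.126 FPKM in siEzh2 and 10.7 ± 0.253 FPKM in control samples (SD, n = 3 each, adjusted p = 0.00339). Hif3a, the third alpha subunit, fell by 0.32 (adjusted p = 0.00327), with 3.79 ± 0.126 FPKM in siEzh2 and 4.98 ± 0.319 FPKM in control samples (SD, n = 3 each). Arnt, the beta subunit that pairs with every alpha subunit, averaged 9.76 ± 0.573 and 10.1 ± 0.0701 FPKM (SD, n = 3 each) and did not pass (adjusted p = 0.459), nor did the hydroxylases Hif1an (adjusted p = 0.503) and Egln2 (0.147). Egln2 passed as lower without siEzh2 sample 3 (adjusted p = 0.0495).

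**Figure D4:**
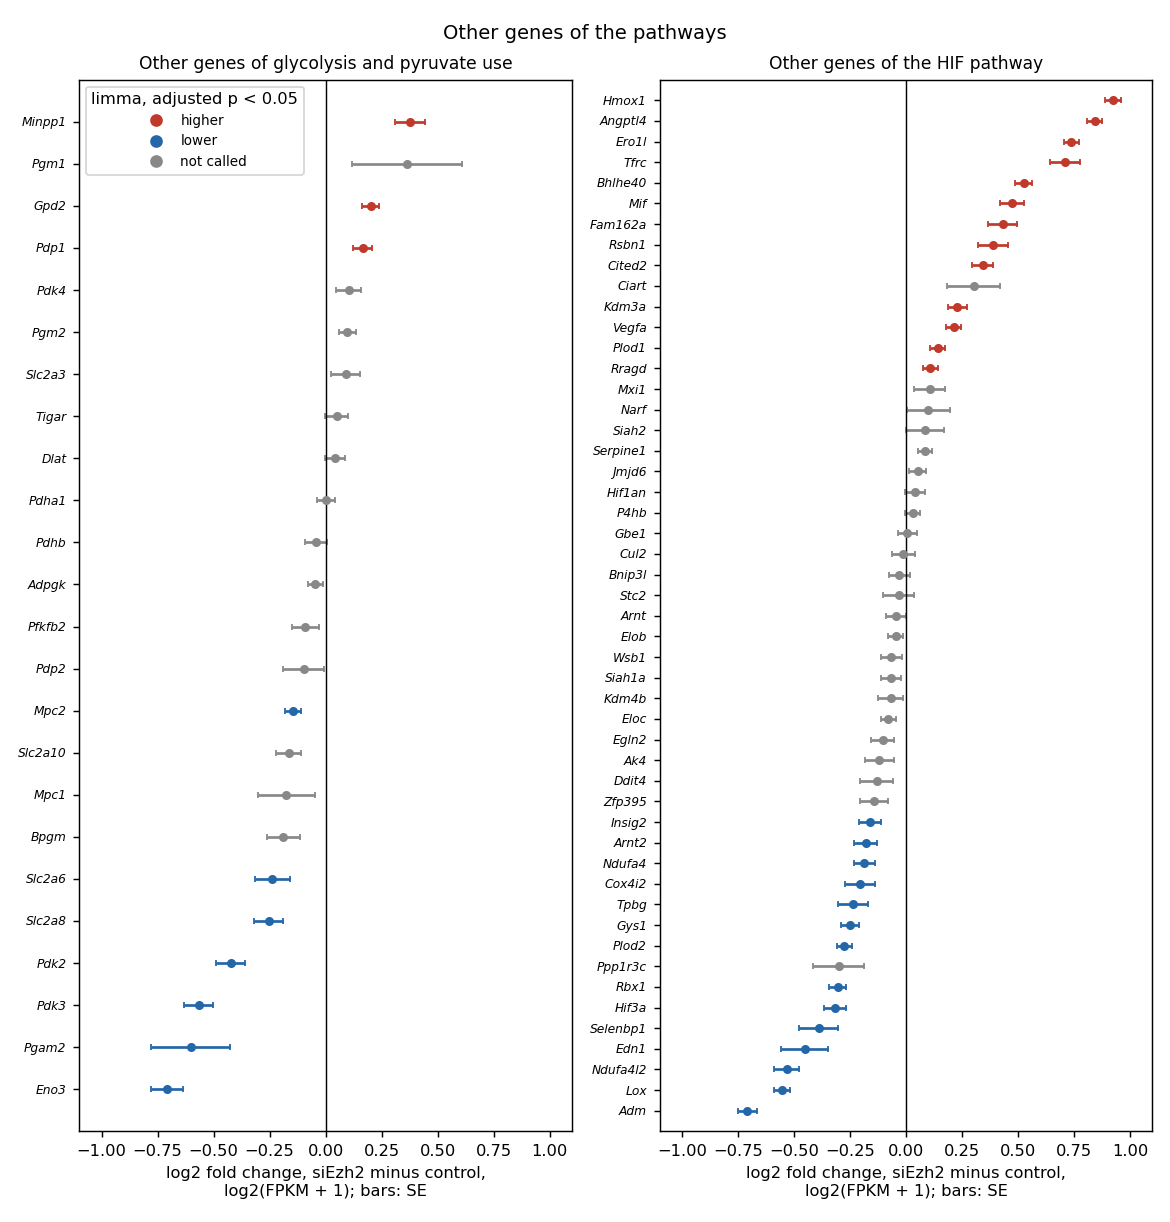
Log2 fold changes (x axis, siEzh2 minus control on log2(FPKM + 1), bars SE) of the 24 other tested genes of glycolysis and pyruvate use (left) and the 50 of the HIF pathway (right), sorted from highest to lowest. The HIF genes run from 0.92 for Hmox1 to −0.71 for Adm.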

How the data were processed

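The 6 tables give FPKM per gene, 1 table per sample, as deposited by the authors and named FPKM per the file headers. Libraries were stranded mRNA (TruSeq) per the labels. Trimmomatic, HISAT2, HTSeq, Cufflinks and mm10 are named, per the submitters' processing notes, without versions or order. The sources used here do not state whether the counting used strand. Genes averaging 1 FPKM or more in either group were tested across the whole table with limma 3.58.1 (R 4.3.3) on log2(FPKM + 1), siEzh2 minus control, with Benjamini-Hochberg adjustment over 11869 genes. Python 3.11.15 did the rest. The test was tried on simulated data. Exon lengths from GENCODE M21 (mm10, 99.8% of IDs matched) turned FPKM into reads, and 98.5% to 98.6% of the lower counts came out whole within 0.02. No sample was a copy of another: chi-square over its degrees of freedom lay at 2.23 to 3.67 within groups. Shares of paralogs were compared with exact permutation tests over samples, and promoter windows came from RefSeq (32 of 34 genes matched). Groups came from sample titles. Alternatives were quantile normalization, no filter, a pseudocount of 0.1, trend and robust moderation, a replicate block, limma-voom on recovered reads and leaving out each sample. All 34 members were named. From the wider list, the 4 largest called rises and falls and 5 HIF components were named, and others were chosen after their values were seen. The members and lists were chosen with earlier results of these data known.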

Additional observations from a re-analysis of the deposited data

How the results depend on the processing

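The counts of the 34 genes kept within 1.5 times of 14 rises and 4 falls in all 12 alternative fits. Rises ranged from 10 to 12 and falls from 4 to 5 when 1 sample was left out, and limma-voom on recovered reads gave 17 rises and 6 falls. With no filter there were 11 rises and 4 falls, with quantile normalization 12 and 5, with trend and robust moderation 15 and 6, and with a pseudocount of 0.1 14 and 4. Over all tested genes rises ranged from 2309 to 3194 and falls from 2156 to 3036. The replicate block gave 13 rises and 4 falls, and ended only the call of Slc2a1 among the 34 genes. Same-numbered samples hardly deviated together (r = 0.024, 0.07 and 0.04 across genes, which are not independent replicates), although each sample correlated best with its own number, so the numbers were not taken as pairs. No called gene among the 34 changed direction. The median log2 fold change of all tested genes was −0.01 with quantile normalization, against 0.01 without it. At 16080003 to 18753128 reads a sample, Ankrd37 and the smaller Aldoa ID were too thinly covered to compare.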

Other observations

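Other genes of pyruvate and glucose use were chosen after their values were seen. Pdk4, a pyruvate dehydrogenase kinase, averaged 57.5 ± 2.26 FPKM in siEzh2 and 53.6 ± 3.16 FPKM in control samples (SD, n = 3 each, adjusted p = 0.169, limma). Pdk2 fell by 0.42 on the log2 scale (adjusted p = 0.00276), to 3.63 ± 0.399 FPKM in siEzh2, against 5.19 ± 0.0366 FPKM in control samples (SD, n = 3 each), and Pdk3 fell as well. The opposing phosphatase Pdp1 rose by 0.17 (adjusted p = 0.0219), and Pdha1, the catalytic subunit they act on, had a log2 fold change of 0.00 (95% interval −0.09 to 0.10, adjusted p = 0.978). Glut4 (Slc2a4), below the filter, had 0.0536, 0.327 and 0.116 FPKM in siEzh2 samples, against 0.409, 0.414 and 0.356 FPKM in control samples. These rest on 3, 20 and 7 reads in siEzh2 and 26, 27 and 23 reads in control samples. Gapdhs, the sperm-type paralog of Gapdh, was also below it, with 0.541, 0.636 and 0.571 FPKM in siEzh2 and 0.238, 0.298 and 0.335 FPKM in control samples. Its values rest on 14, 18 and 16 reads in siEzh2 and 7, 9 and 10 reads in control samples.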
